A study of Homo sapiens with 12 samples.

Results

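The genes described here encode the proteins of the mitochondrial ribosome, taken as every gene whose symbol is MRPL or MRPS followed by a number, with pseudogenes left out. They were followed on 12 Affymetrix expression arrays of HEK293T cells in which MED26 had been knocked down. Of the 19775 genes with a probe set that names 1 gene, 75 met the rule, 48 named for the large subunit (MRPL) and 27 for the small subunit (MRPS). Where a gene had several probe sets, the one standing for it was chosen by the highest mean log2 intensity over all 12 arrays, and no comparison between groups entered that choice. The family as a whole was picked for description with earlier results of these arrays known, so its counts below are a description. MRPL53 and MRPS24 appeared only on probe sets that name several genes and were not counted, and the protein formerly named MRPS36 is listed under the symbol KGD4 and was not counted either.

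HEK293T is a human embryonic kidney cell line that expresses the SV40 large T antigen. The series asked which genes respond to loss of MED26, a subunit of Mediator, the complex through which transcription factors act on RNA polymerase II. Cells received 25 nM of siRNA s18074, s18075 or s18076, each directed at MED26, or 25 nM of a non-targeting siRNA, and RNA was taken 48 hours later. Each of these 4 groups held 3 arrays, made from 300 ng of total RNA, and all 3 knockdowns were compared with the same control arrays. The treatment protocol names a single non-targeting siRNA, but the array labels number a different one for each control replicate, so within the controls the siRNA and the replicate number cannot be told apart. The labels do not say that replicates were separate cultures, so the p-values speak only of how much these arrays varied, and that variation may be technical.

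All values below are log2 intensities from probe sets, and a difference is a mean log2 intensity after knockdown minus the mean of the controls, with the standard error (SE) of a limma model fitted to all genes. A gene was called where its Benjamini-Hochberg adjusted p over the 19775 genes was under 0.05. The arrays had been quantile-normalized, so a change of total RNA per cell could not be seen, and in a bulk sample fewer cells of a type and less RNA per cell cannot be told apart. Array medians lay between 72.3 and 73.8 on the deposited linear scale, and the number of arrays limits the precision. The replicate 1 arrays of the 4 groups deviated together from their group means (correlations of 0.326 to 0.439 over all genes), and counts without them are given with the results. MED26 was between 9.84 and 9.87 on the controls and between 8.69 and 9.41 on the 9 knockdown arrays, which did not overlap them. Its mean fall over the siRNAs was -0.92 ± 0.05 (SE), with s18075 leaving the most signal. The exact two-sided permutation test over 220 splits of the arrays, which pools the siRNAs, gave p = 0.00455. That is the smallest value these splits can give, so it restates the lack of overlap. The 8 genes listed as typical of HEK293T cells averaged between 6.54 and 11.75 on the control arrays, the 4 measured blood genes between 3.99 and 6.15, the 6 fibroblast genes between 5.09 and 8.52 and the 6 genes of other carcinoma lines between 4.07 and 7.67. After knockdown 3 of the 8, none of the 4, 2 of the 6 and 1 of the 6 were called lower by limma. Their part in the results below was not tested.

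The mitochondrial ribosome translates the few messages encoded by mitochondrial DNA, all of which specify membrane subunits of the respiratory chain and ATP synthase. Its RNAs come from the mitochondrial genome, but every one of its proteins is encoded in the nucleus, made in the cytosol and imported. Compared with its bacterial relative the particle carries many extra, mitochondria-specific proteins. The transcription factors GABP (an ETS family protein, also called NRF2), NRF1 and YY1 are known regulators of nuclear genes for mitochondrial proteins.

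The promoters of 67 of the 75 genes were found in the RefSeq table (GRCh38.p14), which gives 250 bases before and 50 after each start. The 250 bases upstream of the start are shown for the 4 genes that were called in 1 direction with each of the 3 siRNAs, MRPL1, MRPL48 and MRPL54 (lower) and MRPS6 (higher). They are written 5′ to 3′ on the strand of the gene, which is the plus strand for each. MRPL1 is at chr4:77862580-77862829, MRPL48 at chr11:73787624-73787873, MRPL54 at chr19:3762432-3762681 and MRPS6 at chr21:34073328-34073577. Capitals mark the ETS core CCGGAAG, which reads CTTCCGG on the other strand, and a TATAAA at the far upstream edge of the MRPL54 window.
MRPL1: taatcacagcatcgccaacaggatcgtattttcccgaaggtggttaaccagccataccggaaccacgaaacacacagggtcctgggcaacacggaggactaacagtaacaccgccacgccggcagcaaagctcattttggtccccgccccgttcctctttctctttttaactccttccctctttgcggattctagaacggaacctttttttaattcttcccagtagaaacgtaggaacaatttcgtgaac
MRPL48: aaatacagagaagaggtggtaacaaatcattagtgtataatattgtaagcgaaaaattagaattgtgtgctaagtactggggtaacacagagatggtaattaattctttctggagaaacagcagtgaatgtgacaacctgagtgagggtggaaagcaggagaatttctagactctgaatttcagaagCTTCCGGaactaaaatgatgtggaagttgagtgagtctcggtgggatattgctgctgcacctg
MRPL54: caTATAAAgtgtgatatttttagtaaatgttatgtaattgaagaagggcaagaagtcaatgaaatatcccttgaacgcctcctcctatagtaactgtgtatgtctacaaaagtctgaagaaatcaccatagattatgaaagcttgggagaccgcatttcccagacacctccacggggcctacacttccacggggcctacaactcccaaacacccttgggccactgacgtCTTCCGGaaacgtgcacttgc
MRPS6: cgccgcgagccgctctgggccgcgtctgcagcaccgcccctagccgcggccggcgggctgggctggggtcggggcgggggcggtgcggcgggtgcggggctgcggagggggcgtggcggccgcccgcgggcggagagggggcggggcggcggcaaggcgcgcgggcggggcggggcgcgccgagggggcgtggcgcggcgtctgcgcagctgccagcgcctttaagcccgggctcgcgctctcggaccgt

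The upstream sequences of MRPL48 and MRPL54 each held 1 ETS core, at positions -63 and -21 relative to the start, and those of MRPL1 and MRPS6 held none of the motifs searched. They also differed in composition, since 84.8% of the MRPS6 bases are G or C, with 46 CG dinucleotides, against 49.2% and 15 for MRPL1, and 44.8% and 7 for MRPL54, with only 3 CG dinucleotides for MRPL48. Over all 67 promoters, the ETS core was present on either strand in 28 (41.79%), against 14.23% of the 15842 protein-coding promoters of the same length. The YY1 core AAGATGG, whose letters ATG can serve as a start codon, was present on either strand in 22 (32.84%), against 6.4% of all. The NRF1 core, which is GCGC, any 2 bases and GCGC again, was in 13.43% against 11.98%, the E-box CACGTG in 8.96% against 8.88% and TATAAA in 2.99% against 9.63%. These motifs were searched on both strands and none contains another, although copies may overlap. A match is a string of letters and not a measured binding site.

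The YY1 cores lay close to the start, beginning at a median of 10 bases after it over 23 copies, and 19 of the 23 ran on the strand of the gene. They are shown with their flanks for the 7 genes that carry one and were called in the mean of the 3 siRNAs, each read 5′ to 3′ on the strand of the motif and with the core in capitals. The sites are MRPL11 chr11:66438807-66438835, MRPL36 chr5:1799854-1799882, MRPL46 chr15:88467363-88467391, MRPS7 chr17:75261887-75261915, MRPS18A chr6:43687765-43687793, MRPS18B chr6:30617852-30617880 and MRPS30 chr5:44808949-44808977.
MRPL11: acctctggcccAAGATGGtggcgcccaga
MRPL36: tgccaggaaggAAGATGGcggcggggggg
MRPL46: tgggagaacgaAAGATGGcggcgcccgta
MRPS7: cgtggccagccAAGATGGctgcccccgca
MRPS18A: gtaggtttttgAAGATGGcggccctcaag
MRPS18B: gggcgtacgtcAAGATGGcggcgtctgta
MRPS30: aatcgcgggcaAAGATGGcggcggccagg

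ETS cores lay mostly just upstream, at a median of 22 bases before the start over 37 copies. They are shown for the 5 small subunit genes that carry one and were called lower, again on the strand of the motif, with the first copy for genes that have several. The sites are MRPS18A chr6:43687805-43687833, MRPS21 chr1:150293839-150293867, MRPS26 chr20:3046004-3046032, MRPS33 chr7:141014935-141014963 and MRPS34 chr16:1773188-1773216. MRPS18A has both motifs, as do 9 of the 67 genes (13.4%) against 1.27% of all promoters.
MRPS18A: ggcgctacgttCCGGAAGcggaaatggac
MRPS21: ggttctcactaCCGGAAGcggaaattacg
MRPS26: gccaccgtgccCCGGAAGcggcgcgggga
MRPS33: gcgccctcgtcCCGGAAGgcccgccctct
MRPS34: ttcggtcgcggCCGGAAGcgaggaagagg

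Calls came from genes with and without these motifs. In the mean of the 3 siRNAs, limma called 7 of the 28 genes with an ETS core lower and 0 higher (0 also at an unadjusted p under 0.05), with a median difference of -0.094. Of the 39 genes without one, 11 were called lower and 3 higher, with a median of -0.05. With a YY1 core, 6 of 22 were called lower and 1 higher (median -0.085), and without it 12 of 45 and 2 (median -0.05). The difference between these classes was not tested.

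After MED26 knockdown the mitochondrial ribosomal protein genes moved more often down than up, by small amounts. In the mean of the 3 siRNAs, 21 of the 75 genes fell and 3 rose. The falls reached -0.44 for MRPL48, which is 73.9% of the control level, and the rises reached 0.29 for MRPS6, 122.1% of control. The 21 that fell are 28.0% of the genes, where 10.2% of all genes tested were called lower. The 3 that rose are 4.0%, where again 10.2% of all genes were called higher. Because these are bright probe sets, the same shares were taken over the 3925 genes at least as bright as the dimmest of them, and were 15.8% lower and 14.3% higher. With the 9 knockdown arrays fitted as 1 group, so that the spread between siRNAs enters the error, 7 of the 75 were called lower (9.33%, against 5.99% of all genes and 8.38% of equally bright ones) and 3 higher (4.0%, against 6.82% and 9.25%). In that fit the share called in either direction, 13.3%, is near the 12.8% of all genes. In the fit with 4 groups the other 51 genes did not pass the test. The median difference over the 75 genes was -0.078 and 52 lay below 0, while the median over all genes was -0.002 and over the equally bright genes -0.006.

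Both subunits had more falls than rises in the fit with 4 groups. Of the 48 large subunit genes 11 fell (22.9%) and 0 rose by the limma call, with 3 higher at an unadjusted p under 0.05, and of the 27 small subunit genes 10 fell (37.0%) and 3 rose (11.1%). The medians were -0.052 and -0.10, and 33 and 19 genes lay below 0. When each array was scaled again on its own median these medians were -0.071 and -0.12. The symbols do not follow the structure in every case: by their RefSeq systematic names, MRPS30 (mL65) and MRPS18A (mL66) are proteins of the large subunit. Counted that way, 12 of 50 large subunit genes fell and 1 rose, and 9 of 25 small subunit genes fell and 2 rose, with the same medians. Between the 3 control arrays the median level of each subunit had an SD of 0.041 and 0.044, and the difference between the subunits was not tested. With the knockdown arrays fitted as 1 group, the large subunit calls were MRPL1, MRPL11, MRPL21, MRPL48 and MRPL54, all lower. The small subunit calls were MRPS21 and MRPS34 (lower) and MRPS6, MRPS9 and MRPS30 (higher), so falls did not outnumber rises there.

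**Figure D1:**
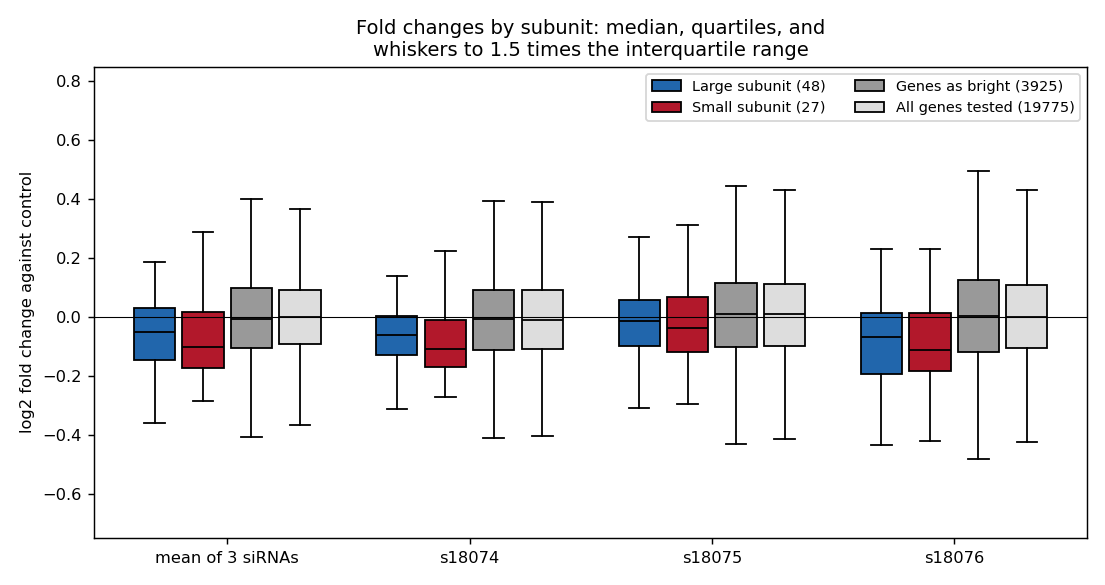
Box plots of the log2 difference from control (vertical axis) for large subunit genes, small subunit genes, genes at least as bright as the dimmest of them and all genes tested, for the mean of the siRNAs and for each siRNA. Boxes span the quartiles around the median and whiskers reach 1.5 times the interquartile range. The large and small subunit medians lie below 0 in all 4 comparisons, least with s18075 (-0.014 and -0.036), while the medians of the 2 background sets stay near 0.

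The systematic names also separate proteins shared with bacteria or with all life (prefix b or u) from those found only in mitochondria (prefix m). Among 30 shared large subunit proteins 8 fell and the other 22 did not pass (median -0.065), and among 20 mitochondria-specific ones 4 fell and 1 rose (median -0.049). Among 14 shared small subunit proteins 3 fell and 2 rose (median -0.096), and among 10 mitochondria-specific ones 5 fell and the other 5 did not pass (median -0.12). Calls thus came from both classes in both subunits. The background was 10.2% lower and 10.2% higher over all genes, and 15.8% and 14.3% over equally bright ones. MRPS28, whose systematic name is not in the table, fell as well.

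Only 4 genes were called in 1 direction with each siRNA taken alone. MRPL1, MRPL48 and MRPL54 fell, 4.0% of the 75 genes where 3.13% of all genes were called lower with all 3 siRNAs, and MRPS6 rose, 1.33% where 3.52% of all genes were called higher. Among the genes at least as bright as the dimmest of the 75 the shares were 4.08% lower and 5.32% higher. On these shares the genes stand near the background. The falls of MRPL48 and MRPL54 were called in every fit that left out 1 array. Without control replicate 1, and with replicates 2 and 3 alone, the count was 2 and these were MRPL48 and MRPL54.

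MRPL48 encodes mL48, a mitochondria-specific protein of the central protuberance, the ridge on the large subunit that faces the small one. It measured 11.06, 10.83 and 11.01 on the control arrays, 10.62, 10.50 and 10.43 with s18074, 10.60, 10.57 and 10.47 with s18075, and 10.62, 10.50 and 10.48 with s18076. Every knockdown array lay below the lowest control. The siRNAs gave -0.46, -0.42 and -0.43 (SE 0.08 each), with limma adjusted p of 0.00169, 0.00206 and 0.0015. No difference between siRNAs was called (F test between siRNAs, limma adjusted p = 0.961).

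MRPL54 encodes mL54, another mitochondria-specific protein of the large subunit. Its control arrays read 11.15, 11.05 and 11.15. The knockdown arrays read 10.72, 10.75 and 10.76 with s18074, 10.80, 10.79 and 10.84 with s18075, and 10.72, 10.71 and 10.74 with s18076. The groups did not overlap, and the knockdown arrays lay close together, with SDs between 0.01 and 0.03 (n = 3). The mean difference was -0.36 ± 0.04, 78.0% of control (limma adjusted p = 7.1e-05).

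MRPL1 encodes uL1m, the protein at the tip of the mobile stalk that guides spent tRNA out of the ribosome. Control arrays gave 11.62, 11.57 and 11.63, s18074 gave 11.20, 11.32 and 11.25, s18075 gave 11.28, 11.41 and 11.46, and s18076 gave 11.21, 11.33 and 11.24. All 9 knockdown arrays were lower than the 3 controls, with s18075 closest to them. Its mean difference was -0.31 ± 0.05 (limma adjusted p = 0.000904). The call with s18075 alone (-0.22 ± 0.06, limma adjusted p = 0.0256) was lost without control replicate 1 or 3 and without s18075 replicate 1 or 2, with adjusted p of at most 0.101.

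MRPS6 encodes bS6m, a protein of the small subunit platform, and moved the other way. It measured 10.87, 10.94 and 10.99 on the control arrays, 11.17, 11.16 and 11.14 with s18074, 11.30, 11.41 and 11.35 with s18075, and 11.11, 11.11 and 11.24 with s18076. All 9 knockdown arrays were higher than every control, and those of s18075 were the highest. The differences were 0.22, 0.42 and 0.22 (SE 0.06 each), and the limma adjusted p was 0.0205, 0.000326 and 0.0175. The call with s18074 was lost without control replicate 1 or 2 or any s18074 replicate, and that with s18076 without control replicate 1 or s18076 replicate 3, with adjusted p up to 0.0696 and 0.0823. The call in the mean of the siRNAs (0.29 ± 0.05, limma adjusted p = 0.000915) was kept in all 12 such fits.

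**Figure D2:**
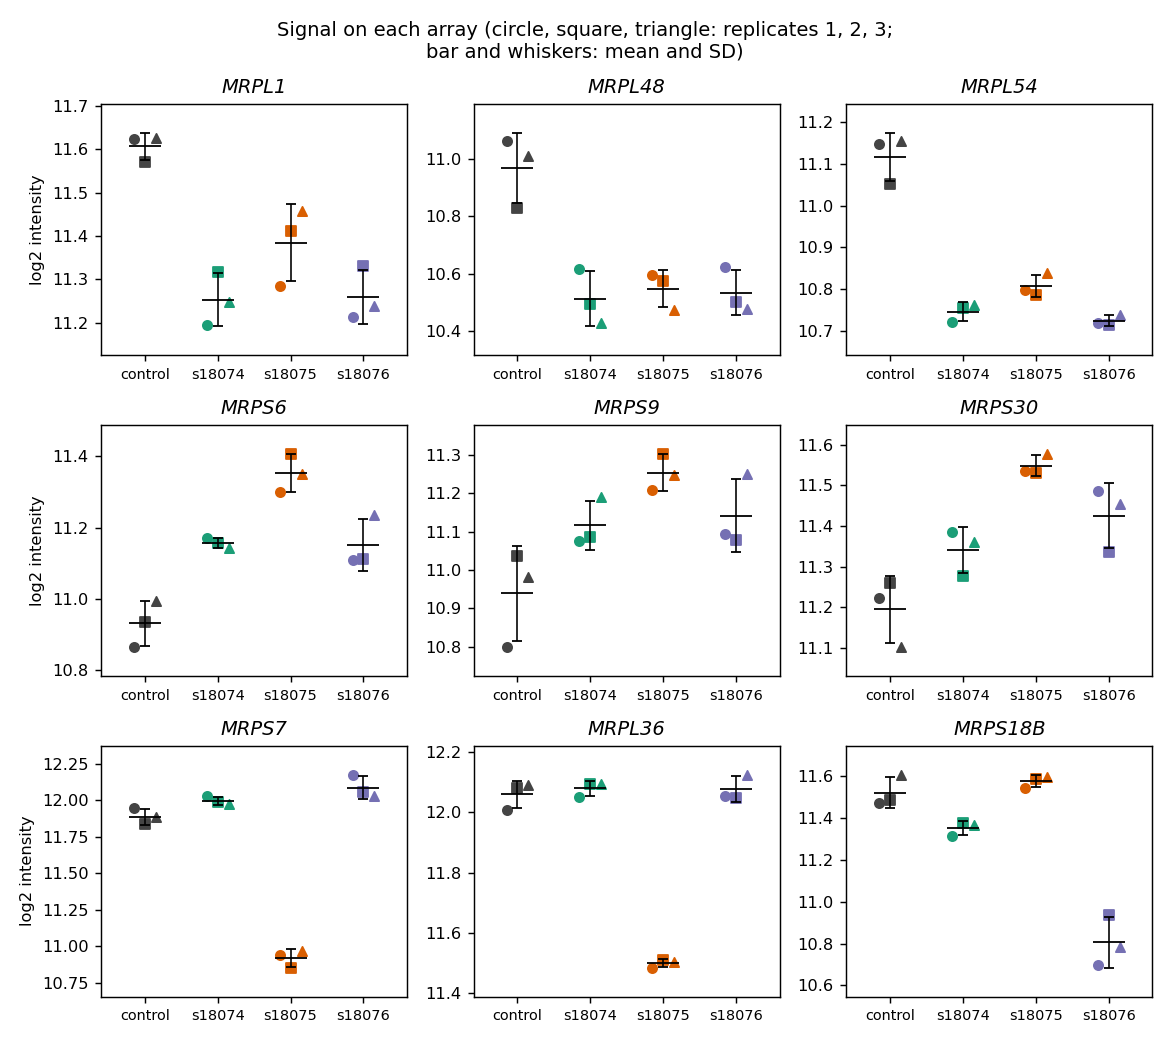
Log2 intensity (vertical axis, a separate range for each gene) on each of the 12 arrays for 9 genes, with circles, squares and triangles for replicates 1, 2 and 3 and bars for the group mean and SD (n = 3). In the top row and for MRPS6, MRPS9 and MRPS30 all 9 knockdown arrays lie on 1 side of the controls, while in the bottom row 1 siRNA stands apart, with MRPS7 near 10.92 and MRPL36 near 11.50 for s18075 and MRPS18B near 10.81 for s18076.

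The other genes called higher in the mean of the siRNAs were MRPS9 and MRPS30. MRPS9, which encodes uS9m, a protein of the small subunit head whose bacterial relative reaches towards the tRNA in the peptidyl site, read 10.80, 11.04 and 10.98 on control arrays and from 11.08 to 11.30 on the 9 knockdown arrays. Its mean difference was 0.23 ± 0.06 (limma adjusted p = 0.0152), and without control replicate 1 it was 0.16 with an adjusted p of 0.096. MRPS30 read 11.22, 11.26 and 11.10 on the controls and from 11.28 to 11.58 after knockdown, with a mean difference of 0.24 ± 0.05 (limma adjusted p = 0.00416). A second, dimmer probe set of MRPS30 moved the opposite way, by -0.33 (limma adjusted p = 0.00165), and the remaining one by -0.05 (adjusted p = 0.699). The direction of MRPS30 therefore depends on the probe set, and the mean of the 3 probe sets gave -0.046.

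All 9 knockdown arrays lay below every control for 11 genes (14.7%), where 6.43% of all genes did so, and above for 3 genes (4.0%), where 6.78% did. The 11 were MRPL1, MRPL11, MRPL21, MRPL46, MRPL48, MRPL54, MRPS18A, MRPS21, MRPS25, MRPS26 and MRPS34, and the 3 were MRPS6, MRPS9 and MRPS30. Of the 24 calls in the mean of the siRNAs, 13 were kept in each of the 12 fits that leave out 1 array. The calls of MRPL34 and MRPS33 were kept in only 3 of these fits, with adjusted p up to 0.132 and 0.125.

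The central protuberance, which in the human particle holds a tRNA in place of the bacterial ribosomal RNA there, was represented by MRPL18, MRPL27, MRPL38, MRPL40, MRPL46, MRPL48 and MRPL58. All 7 lay below 0, with a median of -0.143, and 2 of them, MRPL48 and MRPL46, passed the test. The group is small, and 10.2% of all genes and 15.8% of equally bright ones were called lower. MRPL46 was -0.14 ± 0.04 (limma adjusted p = 0.0166), a call lost without control replicate 2 or 3 (adjusted p up to 0.0626). MRPL58, also known as ICT1, a peptidyl-tRNA hydrolase built into the ribosome, was at -0.05 ± 0.06 (limma adjusted p = 0.624).

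Around the exit tunnel, through which the new chain leaves, 2 of 6 genes fell and the other 4 did not pass the test. Their median was -0.088. Against this small group, 10.2% of all genes and 15.8% of equally bright ones were called lower. MRPL23 measured 11.52, 11.60 and 11.68 on control arrays, 11.35, 11.35 and 11.36 with s18074, 11.55, 11.52 and 11.53 with s18075, and 11.32, 11.23 and 11.32 with s18076. Only the s18075 arrays overlapped the controls, and the mean difference was -0.21 ± 0.04 (limma adjusted p = 0.00507). MRPL24, its neighbour in that group, followed the same order and is described with the siRNA differences. MRPL17 had the highest value of the group, 0.19 ± 0.07, which did not pass the test (limma adjusted p = 0.0924).

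At the stalk that recruits the elongation factors, MRPL11 forms the base, MRPL10 the arm and MRPL12 the mobile tips. MRPL11 measured 11.12, 11.16 and 11.21 on control arrays and between 10.82 and 11.06 on all knockdown arrays, which did not overlap them. It fell by 0.24 ± 0.04 on the log2 scale (limma adjusted p = 0.00165). MRPL12 was at -0.08 ± 0.05 (limma adjusted p = 0.346). MRPL10 had no call in the mean of the siRNAs and is described below.

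Other large subunit genes that fell were MRPL21, whose product binds ribosomal RNA, and MRPL9, MRPL34 and MRPL36. MRPL21 read 11.76, 11.76 and 11.78 on the controls, and its 9 knockdown arrays all lay below them, from 11.44 to 11.68. Its mean difference was -0.23 ± 0.04 (limma adjusted p = 0.00107). The brightest of all these probe sets over the 12 arrays were those of MRPL51, MRPL3 and MRPS15, with MRPL51 at 0.04 ± 0.04 and MRPL3 at -0.09 ± 0.05 and neither called (limma adjusted p = 0.592 and 0.262). The dimmest were those of MRPL2, MRPL24 and MRPL50, and of them only MRPL24 was called, with MRPL2 at -0.08 ± 0.06 and MRPL50 at 0.02 ± 0.08 (limma adjusted p = 0.434 and 0.89).

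In the small subunit the largest mean fall was that of MRPS21, encoding bS21m, which contacts the region where message and ribosomal RNA meet in bacteria. It read 12.32, 12.57 and 12.37 on the controls and from 11.95 to 12.28 on the 9 knockdown arrays, without overlap. The mean difference was -0.28 ± 0.06 (limma adjusted p = 0.00667), and without control replicate 2, its highest array, it was -0.21 with an adjusted p of 0.0517. The mitochondria-specific proteins MRPS25, MRPS26 and MRPS34 were at -0.14, -0.17 and -0.15 (SE 0.04 each), with no overlap with the controls. Their calls were each lost without 1 or another of the control arrays, with adjusted p up to 0.102, 0.0776 and 0.102.

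Proteins of the decoding region and the message channel were represented by MRPS2, MRPS5, MRPS12 and MRPS28, all below 0 with a median of -0.163. The background shares called lower are those given for the exit tunnel. MRPS28 was the 1 gene called, at -0.22 ± 0.05 (limma adjusted p = 0.0132), and without control replicate 3 its adjusted p was 0.0816. It fell with s18074 (-0.27 ± 0.07) and s18075 (-0.30 ± 0.07), and was at -0.08 ± 0.07 with s18076. MRPS12, the counterpart of the bacterial protein that sets decoding fidelity, missed the threshold in the mean of the siRNAs (-0.20 ± 0.07, limma adjusted p = 0.0512) and fell with s18076 (-0.34 ± 0.08, limma adjusted p = 0.0103).

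Human mitochondria have 3 relatives of bacterial S18 that occupy different places in the particle. MRPS18A (mL66, in the large subunit) was at -0.18 ± 0.05 (limma adjusted p = 0.0166, or 0.0977 without control replicate 3). MRPS18B (mS40) was at -0.28 ± 0.05 (limma adjusted p = 0.00291). MRPS18C, the one that keeps the bacterial position (bS18m), was at -0.10 ± 0.06 and did not pass (limma adjusted p = 0.267). KGD4, the former MRPS36, now known as a subunit of the oxoglutarate dehydrogenase complex, was at -0.06 ± 0.06 (limma adjusted p = 0.568).

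The siRNAs differed in how many of these genes they moved. With s18074, 13 genes fell (17.3%, against 7.55% of all genes) and 1 rose (1.33%, against 6.67%). With s18075, 8 fell (10.7%, against 8.77%) and 5 rose (6.67%, against 8.11%). With s18076, 17 fell (22.7%, against 8.62%) and 3 rose (4.0%, against 10.3%). Among equally bright genes 11.0%, 11.8% and 14.3% were called lower with s18074, s18075 and s18076, and 8.69%, 11.2% and 14.6% higher. The s18075 share of lower genes is near these backgrounds. With each siRNA fitted with the controls alone, 7, 5 and 13 were called lower (against 4.97%, 6.67% and 5.76% of all genes), and 3 were called higher, all with s18075 (4.0%, against 5.91%). The total with s18074 was 9 without control replicate 3, 9 and 8 without s18074 replicates 1 and 2, and the total with s18075 was 8 without s18075 replicate 2. MED26 itself fell by 0.57 ± 0.06 with s18075, and was at -1.10 ± 0.06 with s18074 and -1.08 ± 0.06 with s18076 on the log2 scale. The part of this difference in the counts was not tested.

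**Figure D3:**
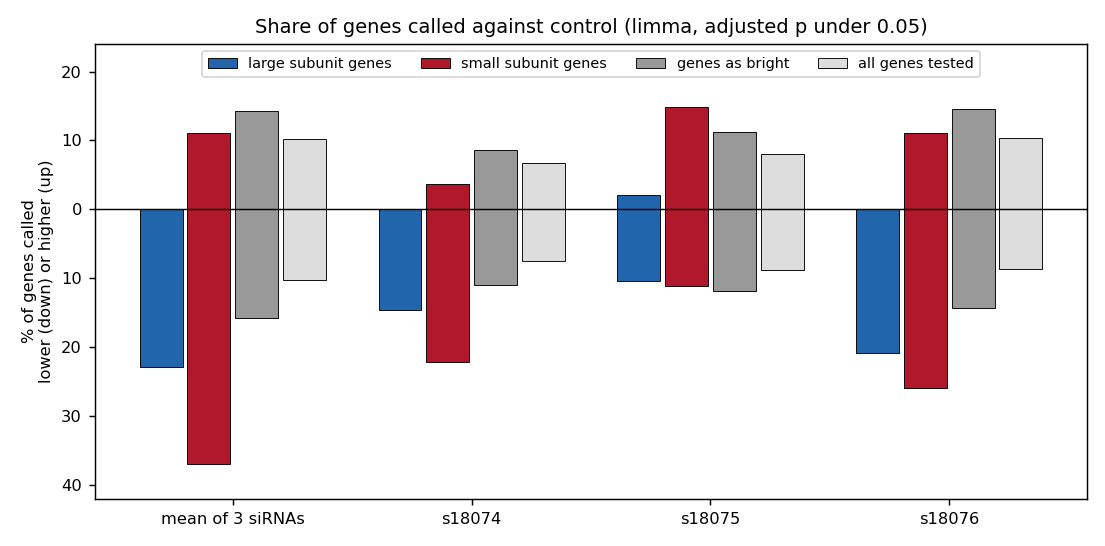
Percentage of genes called lower (downward bars) or higher (upward bars) against control by limma at adjusted p under 0.05, for large subunit genes, small subunit genes, equally bright genes and all genes tested. All shares are from the fit with 4 groups. In the mean of the siRNAs the bars for lower calls reach 22.9% and 37.0% in the subunits against 15.8% of equally bright genes, and with s18075 they stand near the background.

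The F test asks whether the 3 siRNAs differ from each other for a gene. It compares the siRNA means only, but the control arrays enter its estimate of the spread. It called 13 of the 75 genes, 17.3%, against 12.6% of all genes and 19.1% of equally bright ones. The count was 8 without any 1 of the s18075 arrays, and 8 with replicates 2 and 3 alone. In direct comparisons, s18076 minus s18075 gave 12 lower and 3 higher genes (11.0% of all genes called in either direction). For s18075 minus s18074 the counts were 2 lower and 1 higher (6.37% of all genes), and for s18076 minus s18074 4 lower and 0 higher (5.11%), with 2 higher at an unadjusted p under 0.05 in limma. On the probe set standing for each gene, 2 of the 75 were called in opposite directions by different siRNAs, MRPS7 and MRPS14.

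The largest single change was that of MRPS7, encoding uS7m, which organises the head of the small subunit. It measured 11.94, 11.84 and 11.88 on control arrays, 12.03, 11.98 and 11.97 with s18074, 10.94, 10.85 and 10.97 with s18075, and 12.18, 12.05 and 12.03 with s18076. The s18075 arrays were far below all others, and the other knockdown arrays were above the controls. The fall with s18075 was -0.97 ± 0.06, leaving 51.1% of the control signal (limma adjusted p = 5.36e-07). With s18074 the value was 0.11 ± 0.06 (limma adjusted p = 0.284). With s18076 it was 0.20 ± 0.06 (limma adjusted p = 0.0328), a call lost without control replicate 2 or 3 or s18076 replicate 1 or 2, with adjusted p up to 0.113, and also when each array's median was subtracted. The call of MRPS7 in the mean of the siRNAs therefore rests on s18075.

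MRPL36, the counterpart of the small bacterial protein bL36, also fell with s18075. It read 12.01, 12.08 and 12.09 on control arrays, 12.05, 12.09 and 12.09 with s18074, 11.48, 11.51 and 11.50 with s18075, and 12.05, 12.05 and 12.12 with s18076. Only the s18075 arrays lay below the control range. They fell by 0.56 ± 0.05 on the log2 scale, to 67.8% of control (limma adjusted p = 1.23e-05), while s18074 and s18076 were both at 0.02 ± 0.05.

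MRPS18B stood apart with s18076. Control arrays gave 11.47, 11.49 and 11.61, s18074 gave 11.31, 11.38 and 11.37, s18075 gave 11.54, 11.59 and 11.60, and s18076 gave 10.70, 10.94 and 10.78. The s18076 arrays were lowest, the s18074 arrays were also below the controls, and the s18075 arrays overlapped them. The s18076 difference was -0.72 ± 0.07, 60.9% of control (limma adjusted p = 1.59e-05), against -0.17 ± 0.07 with s18074 (adjusted p = 0.118) and 0.05 ± 0.07 with s18075 (adjusted p = 0.662).

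MRPL24, an exit tunnel protein, fell with 2 siRNAs and was near its control level with s18075. It read 10.30, 10.41 and 10.47 on control arrays, 10.02, 10.08 and 10.14 with s18074, 10.32, 10.49 and 10.40 with s18075, and 9.87, 9.97 and 10.02 with s18076. The differences were -0.31, 0.01 and -0.44 (SE 0.07 each), and s18075 was called higher than s18074 by 0.32 ± 0.07 (limma adjusted p = 0.0126). MRPS15, an RNA-binding protein at the interface of the subunits, fell with s18076 (-0.42 ± 0.06, limma adjusted p = 0.000416) and was at -0.16 and -0.06 with s18074 and s18075. MRPL9 fell with s18076 (-0.30 ± 0.05, limma adjusted p = 0.00112) and was at -0.04 and -0.10 with the others.

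MRPL10 and MRPS14 differed between s18075 and s18076, on opposite sides of the controls. MRPL10 was at 0.27 ± 0.08 with s18075 (limma adjusted p = 0.0347) and at -0.22 ± 0.08 with s18076 (adjusted p = 0.078), and the direct difference of -0.49 ± 0.08 was called (limma adjusted p = 0.0015). MRPS14, a head protein of the small subunit, read 12.28, 12.26 and 12.29 on control arrays, 12.49, 12.44 and 12.42 with s18075 and 12.12, 12.07 and 12.09 with s18076, and these groups did not overlap. Its differences were 0.17 ± 0.05 and -0.18 ± 0.05 (limma adjusted p = 0.0366 and 0.0225). The direct difference was -0.35 ± 0.05 (limma adjusted p = 0.000585). The s18075 calls of both genes and the s18076 call of MRPS14 were lost without 1 or another array, with adjusted p up to 0.126, while their F tests were kept in all 12 fits that leave out 1 array. A dimmer probe set of MRPS14 was called higher with s18074 and s18075 (0.35 and 0.28, limma adjusted p = 0.00167 and 0.00485). With s18076 it was at -0.05 (limma adjusted p = 0.61), so the fall of MRPS14 with s18076 depends on the probe set.

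The replicate 1 arrays deviated together in all groups. Among these genes the deviations from group means of the replicate 1 arrays correlated at 0.738 to 0.881 between groups, a closer likeness than over all genes. For replicate 3 the correlations were 0.23 to 0.669, and for replicate 2 they were -0.281 to 0.757. The 75 genes are not independent. The replicate 1 array lay on the same side of replicates 2 and 3 in all 4 groups for 56.0% of the genes, 18 above and 24 below, against 34.5% of all genes. The widest gap was that of MRPL38, a central protuberance protein, with 11.02, 10.96, 10.91 and 10.78 on the replicate 1 arrays and values from 10.16 to 10.55 on the others. That gap averaged 0.62 and was followed by 0.35 for MRPL37 and 0.33 for MRPL44. With replicates 2 and 3 alone, 19 of the 75 genes were called in the mean of the siRNAs, 16 lower and 3 higher. Of the original 24 calls 17 were kept. Over all 19775 genes that fit called 3456, against 4023 with all arrays.

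Probe sets of 1 gene did not always move together. A single probe set stood behind 16 of the 24 genes with a call in the mean of the siRNAs, and 8 had others. Among these 8, another probe set was called the same way for 5 and the opposite way for 1, MRPS30. Among genes not called, MRPL35 had 2 further probe sets called in opposite directions (0.12 and -0.17, limma adjusted p = 0.0457 and 0.0121). A dimmer probe set of MRPL42 was at -0.57 (limma adjusted p = 0.000526), against -0.04 for the probe set used. A dimmer probe set of MRPL20 was at 0.37 (limma adjusted p = 0.00416), against 0.06 for the probe set used. For MRPS11 the brightest probe set was at -0.12 (adjusted p = 0.136) and the dimmer one was called higher at 0.31 (limma adjusted p = 0.0209). Dimmer probe sets of MRPL12, MRPL30, MRPL43, MRPS16 and MRPS23 were called lower (-0.172, -0.185, -0.252, -0.221 and -0.171). Their limma adjusted p was 0.0475, 0.0159, 0.0225, 0.0083 and 0.0201. For MRPS14 a dimmer one was called higher in the mean of the siRNAs (0.193, limma adjusted p = 0.0114).

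Genes that work with the mitochondrial ribosome moved in both directions. For the counts of these lists and the regulators below, 10.2% of all genes were called lower and 10.2% higher. DAP3, a GTP-binding protein of the small subunit without an MRP symbol, read 11.54, 11.57 and 11.48 on control arrays and from 11.67 to 11.81 after knockdown, and rose by 0.22 ± 0.04 (limma adjusted p = 0.0029). It was the 1 gene called of 4 such proteins measured, and its call was lost (0.11, adjusted p = 0.177) when its probe sets were averaged. Of 31 measured assembly factors 5 rose and 5 fell, with a median of -0.038. YBEY, an endonuclease required for small subunit assembly, fell by 0.53 ± 0.06 on the log2 scale (limma adjusted p = 0.000103). MRM2 and MRM1, which methylate the large ribosomal RNA, were at -0.43 ± 0.05 and -0.31 ± 0.07 (limma adjusted p = 6.04e-05 and 0.00481). MRM2 read 11.27, 11.19 and 11.12 on controls and 10.27, 10.21 and 10.20 with s18075, a fall of 0.97 on the log2 scale, and was at -0.15 and -0.17 with the others.

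Of 16 measured genes of a translation factor list, which also holds RNA-binding and insertion proteins such as LRPPRC and OXA1L, 2 rose and 4 fell, with a median of 0.013. The release factor MTRF1L rose by 0.37 ± 0.05, and the initiation factors MTIF2 and MTIF3 were at -0.34 ± 0.05 and -0.31 ± 0.07 (limma adjusted p = 0.000312, 0.000468 and 0.00946). Without control replicate 3, MTIF3 was at -0.23 and its call was lost (adjusted p = 0.0636). Of 17 aminoacyl-tRNA synthetases that charge mitochondrial tRNAs with amino acids, 4 fell and the other 13 did not pass, and neither did 3 subunits of the glutamyl-tRNA amidotransferase, GATB, GATC and QRSL1. The 4 were SARS2, WARS2, PARS2 and GARS1, the last an enzyme shared by cytosol and mitochondria whose call (-0.13, adjusted p = 0.0445) was lost without any 1 of the controls. The largest fall was that of SARS2, the seryl enzyme. It went from 9.11, 9.22 and 8.85 on the controls to between 8.04 and 8.40 on the knockdown arrays, with a mean difference of -0.79 ± 0.08 (limma adjusted p = 4.54e-05). WARS2 was at -0.22 (limma adjusted p = 0.00303). PARS2 was at -0.14 (limma adjusted p = 0.0384), with -0.17, 0.13 and -0.39 by siRNA, of which only s18076 was called, and its mean call was lost without any 1 of the controls (adjusted p up to 0.114). Of 18 genes of mitochondrial transcription and RNA processing 2 rose and 3 fell. Of 4 DNA replication genes kept in the same list 1 rose (POLG, 0.15) and 1 fell (TWNK, -0.15), and 3 protease genes did not pass. The 3 falls were MTERF2 at -0.28, PRORP, the protein subunit of mitochondrial RNase P that cuts tRNA 5′ ends, at -0.24 and FASTKD1 at -0.23 (limma adjusted p = 0.00145, 0.00165 and 0.011). The call of FASTKD1 was lost without control replicate 3 (-0.20, adjusted p = 0.0583). The 2 rises were TFAM at 0.16 and HSD17B10 at 0.20 (limma adjusted p = 0.0377 and 0.0383). Their calls, and those of POLG and TWNK, were lost without control replicate 3 and in further fits that left out 1 array. For TFAM, HSD17B10, POLG and TWNK the adjusted p reached 0.155, 0.142, 0.155 and 0.189.

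Of 14 nuclear regulators of mitochondrial genes 5 fell and 1 rose. MYC, a transcription factor that promotes ribosome production, fell from 10.82, 10.53 and 10.20 on the controls to between 9.54 and 9.94, with a mean difference of -0.82 ± 0.11 (limma adjusted p = 0.000185). The GABP subunit genes GABPA and GABPB2 were at -0.28 ± 0.06 and -0.37 ± 0.05 (limma adjusted p = 0.00531 and 0.000384), and PPARGC1A, a coactivator with a dim probe set, at 0.44 ± 0.08 (adjusted p = 0.00203). GABPB1, also a GABP subunit gene, was at -0.15 ± 0.06 and was not called (limma adjusted p = 0.0816). The remaining genes called lower were PPARGC1B and PPRC1. NRF1 and YY1 were at -0.09 ± 0.07 and 0.11 ± 0.06 and were not called (limma adjusted p = 0.469 and 0.261). In the cytosolic ribosome, limma called 0 of 54 protein genes in either direction in the mean of the siRNAs, with 3 lower and 0 higher at an unadjusted p under 0.05, and their median was -0.022. By siRNA, 1 was called lower with s18075 and 4 with s18076.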

How the data were processed

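The authors deposited 1 linear intensity per probe set and array, computed by RMA (affy 1.24.2, per the submitters' processing notes), a method that removes background, quantile-normalizes arrays and summarises probes. A log2 scale had been assumed when the tests were set out, so log2 was taken here with no pseudocount. The platform annotation pairs 41091 of 54675 probe sets with 1 gene and 1801 with several, and 11721 are unnamed here. The arrays give no read depth, and the intensity values ran from 4.36 to 33219.

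A linear model with 4 group means and 8 residual degrees of freedom was fitted to 19775 genes with limma 3.58.1 (R 4.3.3), followed by contrasts and empirical Bayes moderation. The contrasts were each siRNA, their mean, each pair of siRNAs and an F test between them, with Benjamini-Hochberg adjustment over all genes. The error of the mean leaves out the spread between siRNAs. No probe set was left out for dimness.

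The members, gene lists and tests were chosen with earlier results of these data known. Genes with array values were taken by a rule: those called with all siRNAs, the 6 largest mean rises and falls, the 3 largest changes per siRNA, the 4 whose siRNA values spread most, the 3 brightest and 3 dimmest, those with conflicting probe sets, the S18 paralogs, MRPS30, and the 3 largest called changes of each related list; GABPA, NRF1, YY1 and members that illustrate a structural group were added after their values were seen. The tRNA charging and transcription lists were split by function after their values were seen. The rule's part on genes that vary alike over the arrays is not reported.

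Correlations of deviations between same-numbered arrays were 0.326 to 0.439 for replicate 1, -0.024 to 0.248 for replicate 2 and 0.034 to 0.169 for replicate 3, so the numbers were not taken to pair the samples. When data were simulated for all 19775 genes, the test of the siRNA mean called 38% of planted log2 changes of 0.25, 80% of those of 0.5 and 100% of those of 1 and 2, and 9 of its 168 calls were false. The planted changes were few and equal with each siRNA, and the noise was independent between arrays. In the real arrays 4023 genes were called and the replicate 1 arrays deviated together, so these rates need not hold for them. Alternatives covered scaling, a dim filter, averaged probe sets, variance models, a replicate block, the threshold, and arrays left out. Medians for replicate 1 alone and for subunits by structure were added after seeing the data. Motifs were searched in RefSeq promoters (GRCh38.p14).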

Additional observations from a re-analysis of the deposited data

Results flagged for a closer look

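For 13 of the 75 genes the response differed between the siRNAs by limma's F test. That is 17.3%, against 12.6% of all genes and 19.1% of equally bright ones, so the share lies between these backgrounds. The adjusted p-values were 1.02e-07 for MRPS7, 8.23e-06 for MRPL36, 2.14e-05 for MRPS18B, 0.00109 for MRPS14 and 0.00179 for MRPL24. They were 0.00359 for MRPL10, 0.00385 for MRPS15 and 0.00836 for MRPL9. These 8 calls were kept in every fit that left out 1 array.

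The other 5 were each lost in some of those fits. Their adjusted p-values were 0.0212 for MRPL23, 0.0273 for MRPL21, 0.0288 for MRPS35, 0.0358 for MRPS18A and 0.0494 for MRPS6. MRPS35, a small subunit protein, was at 0.13 ± 0.05 with s18074, -0.06 ± 0.05 with s18075 and 0.16 ± 0.05 with s18076, none of them called against control.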

How the results depend on the processing

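The direction of MED26 and of both subunit medians was kept under each alternative, including 2 further scalings, with subunit medians between -0.074 and -0.05 (large) and -0.124 and -0.098 (small) when 1 array was left out, and MED26 between -0.937 and -0.896. Counts of called genes depended on the settings, and the cause was not tested. Leaving out 1 array gave 17 to 25 calls in the mean of the siRNAs. It gave 8 to 14 with s18074, 8 to 14 with s18075 and 16 to 21 with s18076. The F test gave 8 to 16, and 2 to 4 were called with all 3 siRNAs. Over all genes such fits called 3014 to 4092 in the mean, against 4023 with all arrays.

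With the knockdown arrays fitted as 1 group, which puts the spread between siRNAs into the error, the calls were 10 in the mean (13.3%, against 12.8% of all genes). Fitting each siRNA with the controls alone leaves fewer arrays to estimate the spread. The calls were then 7 with s18074, 8 with s18075, 13 with s18076 and 2 with all 3 siRNAs. By siRNA that is 9.33%, 10.7% and 17.3%, against 9.52%, 12.6% and 13% of all genes. At adjusted p under 0.01 the calls were 14, 7, 7, 12 and 2, with 8 by the F test. Without the dimmest 40% of genes they were 23 with s18075, 33 with s18076 and 8 with all 3. With a trended robust variance they were 22, 32 and 7, with 21 by the F test, and array weights gave 21 with s18075. Over all genes these settings also called more in the mean of the siRNAs. The counts were 4525 of 11865 genes without the dimmest 40%, and 4530 and 4821 of 19775 with the trended variance and array weights. The main fit called 4023 of 19775. Shares of all genes for single siRNAs under these settings are not given. With replicates 2 and 3 only, 8 were called by the F test and 2 with all 3 siRNAs.

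The replicate numbers were not taken to pair the samples. A replicate block with numbers 1 to 3 gave 30 calls in the mean, 21 with s18075 and 21 by the F test. A replicate block of replicate 1 against 2 and 3 also gave 30 in the mean. It gave 22 with s18075, 31 with s18076, 22 by the F test and 7 with all 3 siRNAs. Over all 19775 genes these blocks gave 5019 and 5309 calls in the mean, against 4023 without a block. MRPS30 reversed when its probe sets were averaged, to -0.046 in the mean, -0.049 with s18075 and -0.052 with s18076. With the knockdown arrays as 1 group, the mean of the siRNAs no longer called MRPS7 (adjusted p = 0.689), MRPL36 (0.517), MRPS18B (0.363), MRPL24 (0.187), MRPS15 (0.165) or MRPS18A (0.125).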

Other observations

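Several of these genes start beside a neighbour transcribed the other way. Of the 67 with a promoter in the RefSeq table, 18 had a divergent protein-coding start within 1000 bases. The same share over all promoters was not counted, so whether this is many is not known. The array values of both neighbours were read where measured. MRPS12 and SARS2 start 181 bases apart; SARS2 fell with each siRNA (-0.87, -0.75 and -0.76) while MRPS12 was at -0.16, -0.10 and -0.34, called with s18076 only. MRPS18B and PPP1R10, a regulatory subunit of protein phosphatase 1, start 597 bases apart. PPP1R10 rose in the mean (0.46, limma adjusted p = 0.000354) and with each siRNA (0.428, 0.443 and 0.505). MRPS18B was at -0.28 in the mean and at -0.17, 0.054 and -0.716 by siRNA, called with s18076 only. With the knockdown arrays as 1 group its mean call was lost (adjusted p = 0.363).

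MRPL54 and APBA3, 990 bases apart, both fell (-0.36 and -0.20, limma adjusted p = 7.1e-05 and 0.0033). APBA3 was not called with s18075 (-0.102, adjusted p = 0.192). MRPL30 and MITD1 start 126 bases apart, with MITD1 at -0.41 (limma adjusted p = 0.00285) and MRPL30 at -0.02 (adjusted p = 0.865). A slightly dimmer probe set of MRPL30 was called lower (-0.185, limma adjusted p = 0.0159), so the value of MRPL30 depends on the probe set. MRPL57 and SKA3 start 106 bases apart, with SKA3 at -0.24 (limma adjusted p = 0.00274) and MRPL57 at 0.03 (adjusted p = 0.696). By siRNA SKA3 was called with s18076 only (-0.462). MRPL46 and MRPS11 are both mitochondrial ribosomal protein genes, with starts 320 bases apart, at -0.14 and -0.12, of which only MRPL46 was called. The differences between neighbours were not tested, and the pairs were picked after their values were seen.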
